A study of Mus musculus with 9 samples.

Results

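Ly6 surface antigens are a family of small proteins held on the outer face of the cell membrane by a glycosylphosphatidylinositol (GPI) anchor. The members described here are Ly6a, Ly6c1, Ly6c2, Ly6d, Ly6e and Ly6i, and they were followed through every probe set whose platform symbol names one of them, alone or together with another Ly6 gene. A probe set is the group of short array probes that reports one transcript. This gave 5 probe sets, naming 5 of the 6 genes, of 45037 probe sets that are not array controls and name 19324 genes. Ly6c1 and Ly6c2 share 1 of the probe sets, Ly6e has 2, Ly6i and Ly6d have 1 each, and Ly6a is not analysed here because no probe set carries its name in the annotation used. All 5 passed the filter on dim probe sets, which kept 27022 for the test.

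The arrays, Affymetrix MOE430, were hybridised with RNA of CD11b+ splenocytes from C57BL/6 mice. Adherent spleen cells were enriched for CD11b, the integrin chain carried by monocytes, macrophages and granulocytes, with magnetic beads. The HighThreat group held 6 arrays of 1 animal each, from mice under repeated social threat, numbered 1 to 6. The LowThreat group held 3 arrays, each a pool of 2 animals kept under conditions without threat, numbered 1-2, 3-4 and 5-6. The labels give no age, sex or batch. The design text asks whether expression in these cells differs between the conditions. A LowThreat array averages 2 animals and a HighThreat array holds 1, so the spread within the groups is not of the same kind. All values are log2 expression values, and a difference of 1 is a doubling of signal.

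All members sit in a cluster of related genes on mouse chromosome 15, and their proteins share a compact fold of looped fingers held together by disulfide bonds. The antigen Ly6C, encoded by the near-identical genes Ly6c1 and Ly6c2, is the classical marker that separates inflammatory blood monocytes from patrolling ones, and granulocytes and some lymphocytes carry it too. Ly6e is induced by interferon in many cell types, Ly6d marks early lymphoid cells that are entering the B lineage, and Ly6a, better known as Sca-1, marks blood stem cells and activated lymphocytes.

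Ly6c1 and Ly6c2 are so alike that a single probe set names both, and its level reads both and cannot be divided between them. Their start regions are shown to let that likeness be read. Each is a window of 300 bases around a gene start, taken from RefSeq on assembly GRCm38.p6, and both lie on the minus strand, at chr15:75048788-75049087 for Ly6c1 and chr15:75111922-75112221 for Ly6c2. Capitals mark runs of at least 12 identical bases in the alignment of the windows.
Ly6c1: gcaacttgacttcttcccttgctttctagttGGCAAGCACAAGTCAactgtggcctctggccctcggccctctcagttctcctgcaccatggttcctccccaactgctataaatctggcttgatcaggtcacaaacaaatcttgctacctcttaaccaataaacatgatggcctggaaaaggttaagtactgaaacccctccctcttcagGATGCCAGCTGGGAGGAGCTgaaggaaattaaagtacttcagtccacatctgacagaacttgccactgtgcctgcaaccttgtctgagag
Ly6c2: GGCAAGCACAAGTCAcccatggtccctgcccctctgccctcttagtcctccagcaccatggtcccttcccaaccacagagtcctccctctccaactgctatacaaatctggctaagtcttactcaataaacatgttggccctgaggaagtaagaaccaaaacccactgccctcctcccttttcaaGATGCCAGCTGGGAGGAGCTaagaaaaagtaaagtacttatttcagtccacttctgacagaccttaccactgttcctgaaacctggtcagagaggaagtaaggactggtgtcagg
The table holds 2 windows for each gene, and the pair that aligned best is printed. Of 260 aligned bases 214 were identical, or 82.3%, and the 2 capitalised runs are 35 bases together, the longer one 20. A pair of letter patterns linked to interferon responses were looked for on both strands. An ISRE-like pattern, GAAANNGAA, occurred in none of the 4 Ly6c1 and Ly6c2 windows and in 8.56% of 32851 mouse windows of the same length. A GAS-like pattern, TTCNNNGAA, occurred in none of the 4 and in 8.3% of all. The absence says only that these letters do not occur in these windows.

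Ly6C expression was higher in HighThreat mice. The probe set of Ly6c1 and Ly6c2 ran from 11.08 in HighThreat animal 5 through a median of 11.16 to 11.24 in HighThreat animal 1, against 10.72, 10.72 and 10.57 in LowThreat pools 1-2, 3-4 and 5-6. Every HighThreat animal lay above every LowThreat pool, and a gap of 0.36 separated the lowest animal from the highest pool. The means were 11.16 ± 0.055 in HighThreat and 10.67 ± 0.086 in LowThreat (SD, n = 6 and 3). The difference was 0.49 (SE 0.054, 95% interval 0.37 to 0.61), a 1.40-fold rise (limma adjusted p = 3e-05). In bulk RNA such as this, more cells that carry Ly6C and more Ly6C RNA per cell cannot be told apart.

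Ly6e gave a divided picture, with its 2 probe sets moving in opposite directions. The first, whose name ends in s_at, ran from 10.94 in HighThreat animal 1 through a median of 11.04 to 11.10 in HighThreat animal 5, against 10.87, 10.91 and 10.83 in LowThreat pools 1-2, 3-4 and 5-6. The groups did not overlap, but the gap was 0.036, the smallest among the 5 probe sets. It rose by 0.17 (SE 0.048, 1.12-fold, limma adjusted p = 0.0159), and without LowThreat pool 5-6 the difference of 0.15 no longer passed (adjusted p = 0.0596).

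The second Ly6e probe set, whose name ends in at alone, ran from 5.53 through a median of 5.76 to 5.95 in HighThreat mice, against 6.53, 6.22 and 6.76 in LowThreat pools 1-2, 3-4 and 5-6. All HighThreat animals lay below all LowThreat pools here. Its SD was 0.149 in HighThreat and 0.269 in LowThreat, the widest LowThreat spread of the 5. It fell by 0.73 (SE 0.116, 1.66-fold lower, limma adjusted p = 0.000417). The within-array difference of the first minus the second Ly6e probe set averaged 5.27 ± 0.16 in HighThreat and 4.37 ± 0.31 in LowThreat (SD, n = 6 and 3), a shift of 0.90. It is given with no test, since groups that separate in opposite directions fix the order of that difference. The suffix s_at marks probes that fit more than 1 transcript, and the gene table lists a Ly6e pseudogene on another chromosome, so which transcripts either probe set reads is uncertain.

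Ly6i, a cluster member whose gene lies between those of Ly6e and Ly6a, was slightly higher in HighThreat mice. Its probe set ran from 6.06 in HighThreat animal 2 through a median of 6.13 to 6.29 in HighThreat animal 6, against 5.97, 5.78 and 5.94 in LowThreat pools 1-2, 3-4 and 5-6. The groups were apart by 0.088, which is less than the SD within either of them. The rise was 0.25 (SE 0.067, 95% interval 0.11 to 0.40, 1.19-fold, limma adjusted p = 0.0109). Without LowThreat pool 3-4, the lowest array, it was 0.19 and did not pass (adjusted p = 0.0592).

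Ly6d, the marker of cells entering the B lineage, showed the largest difference of the 5 probe sets and fell in HighThreat mice. Its probe set ran from 4.71 in HighThreat animal 6 through a median of 4.99 to 5.10 in HighThreat animal 2, against 6.97, 6.89 and 6.85 in LowThreat pools 1-2, 3-4 and 5-6. The groups lay 1.75 apart, more than the whole range within either. The mean was 4.94 ± 0.155 in HighThreat and 6.90 ± 0.060 in LowThreat (SD, n = 6 and 3), a fall of 1.96 (SE 0.086, 95% interval -2.15 to -1.77, 3.89-fold lower, limma adjusted p = 3.41e-08).

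**Figure D1:**
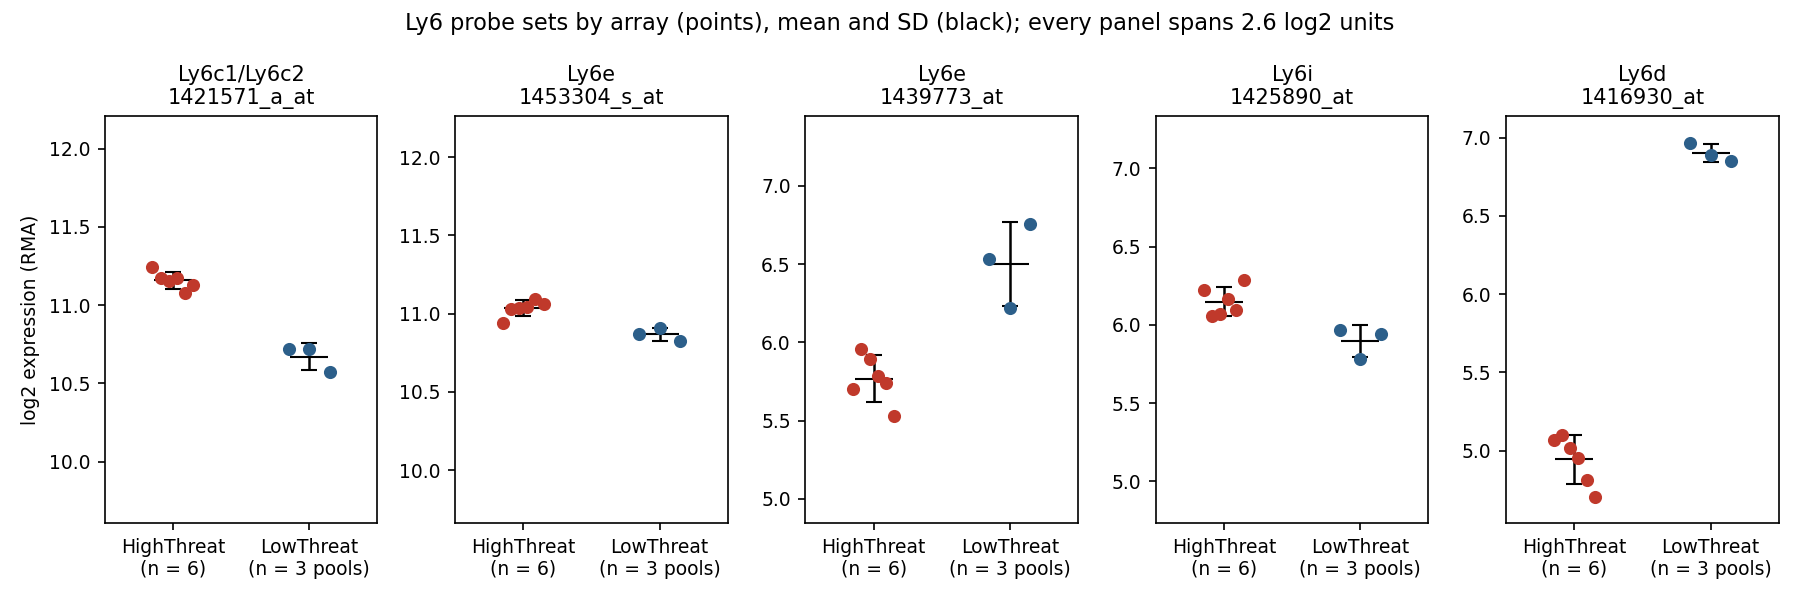
Log2 expression of the 5 Ly6 probe sets on every array, HighThreat animals (red, n = 6) left of LowThreat pools (blue, n = 3), with group means and SD in black; each panel spans the same number of log2 units. HighThreat arrays lie above LowThreat pools for Ly6c1/Ly6c2, the first Ly6e probe set and Ly6i, and below them for the second Ly6e probe set and for Ly6d, where the gap is 1.75.

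These counts need the background of the arrays. All 5 probe sets passed at an adjusted p under 0.05, in a table where 39.8% of tested probe sets did. The 3 that rose stand beside 18.9% of all that rose, and the 2 that fell beside 20.9% that fell. Groups did not overlap in any of the 5, nor in 37.2% of all tested. By absolute size all 5 lay above the middle of the tested probe sets: 53.7% of tested probe sets had a smaller absolute difference than the first Ly6e probe set, 67.2% than Ly6i, 86.1% than Ly6c1/Ly6c2, 93.5% than the second Ly6e probe set and 99.5% than Ly6d. The median absolute difference of all tested was 0.15, and the median difference was 0.016.

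**Figure D2:**
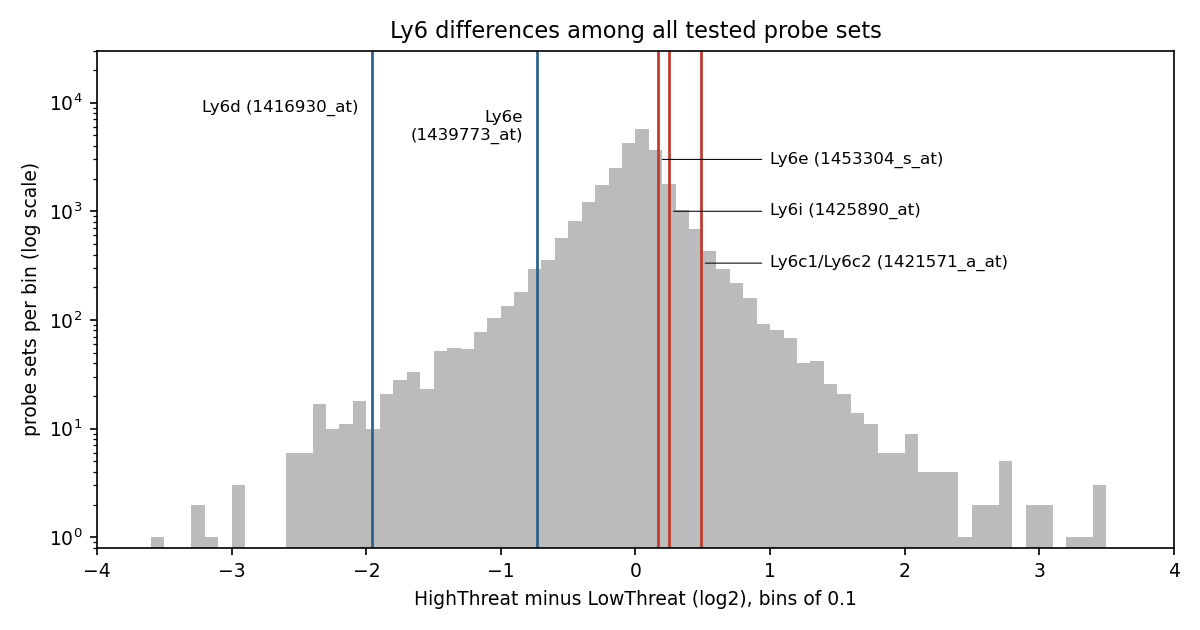
Histogram of the HighThreat minus LowThreat difference (log2, x axis) of all 27022 tested probe sets, counts on a log scale, with vertical lines at the 5 Ly6 probe sets, red where higher in HighThreat and blue where lower. The lines of the first Ly6e probe set (0.17) and Ly6i (0.25) stand inside the central peak, and that of Ly6d (-1.96) stands far out in the lower tail.

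Whether members differed in their response was tested on the difference between 2 members within each array, over 6 pairs with 1 probe set a gene (for Ly6e the first). Ly6c1/Ly6c2 minus Ly6e averaged 0.12 ± 0.106 in HighThreat and -0.20 ± 0.053 in LowThreat, so that Ly6C rose by 0.32 more than Ly6e (exact permutation test over 84 divisions of the arrays, two-sided p = 0.0119, the smallest these can give, adjusted p = 0.0179). Ly6c1/Ly6c2 rose by 0.24 more than Ly6i (exact permutation p = 0.0238, adjusted p = 0.0286). The rises of Ly6e and Ly6i were not told apart, with a difference of -0.084 between them (exact permutation p = 0.357). With the mean of both Ly6e probe sets in place of the first, Ly6e instead stood 0.54 below Ly6i (exact permutation, adjusted p = 0.0143) and 0.77 below Ly6c1/Ly6c2. That mean was lower on every HighThreat array than on every LowThreat pool, while Ly6i and Ly6c1/Ly6c2 were higher. The order of these differences was thereby fixed, so that p adds nothing to the members' own differences.

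Ly6d parted from each of the others. Ly6i minus Ly6d averaged 1.21 ± 0.22 in HighThreat and -1.004 ± 0.10 in LowThreat, a shift of 2.21. The shift was 2.13 for Ly6e minus Ly6d and 2.45 for Ly6c1/Ly6c2 minus Ly6d, and each of these 3 gave an exact permutation p of 0.0119 (adjusted p = 0.0179). Ly6d and its partners each separated the groups without overlap and in opposite directions, so that p adds nothing to their own differences. These 3 pairs still count among the 6 of the adjustment. The adjusted p of Ly6c1/Ly6c2 against Ly6e and against Ly6i is therefore lower than it would be without them. Leaving out a LowThreat pool leaves 28 divisions and a smallest p of 0.0357. The exact permutation adjusted p of the 3 pairs with Ly6d and of Ly6c1/Ly6c2 against Ly6e was then 0.0536 without pool 1-2 or pool 5-6.

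The 5 probe sets sit among close relatives on chromosome 15. From Ly6d to Ly6h the RefSeq table of GRCm38.p6 lists 22 protein-coding genes, of which 15 have a probe set named here, with 15 probe sets in all. Beside the 5 members, none of the 3 other tested probe sets passed. They were those of Ly6g6g (difference 0.016), of Gml and Gml2 together (0.078), and of Ly6g2 (0.10). The other 7, for Ly6k, Cyp11b1, Cyp11b2, Ly6m, Ly6f and Ly6h, were under the filter and were not tested, with differences between -0.080 for Ly6k and 0.16 for Ly6h. Ly6g, whose product is the granulocyte antigen Ly6G, had no probe set naming it here and is not analysed.

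In gene order, Ly6d is the first of the stretch and lies apart from Ly6e, Ly6i, Ly6c1 and Ly6c2, which follow each other with Ly6a between Ly6i and Ly6c1. The members that rose are neighbours, although the second Ly6e probe set fell within the same stretch. Between Ly6d and Ly6e only the probe set of Ly6g6g and the one shared by Gml and Gml2 were tested, and neither passed. Ly6k, Cyp11b1, Cyp11b2 and Ly6m were under the filter there, so the stretch between was barely measured.

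**Figure D3:**
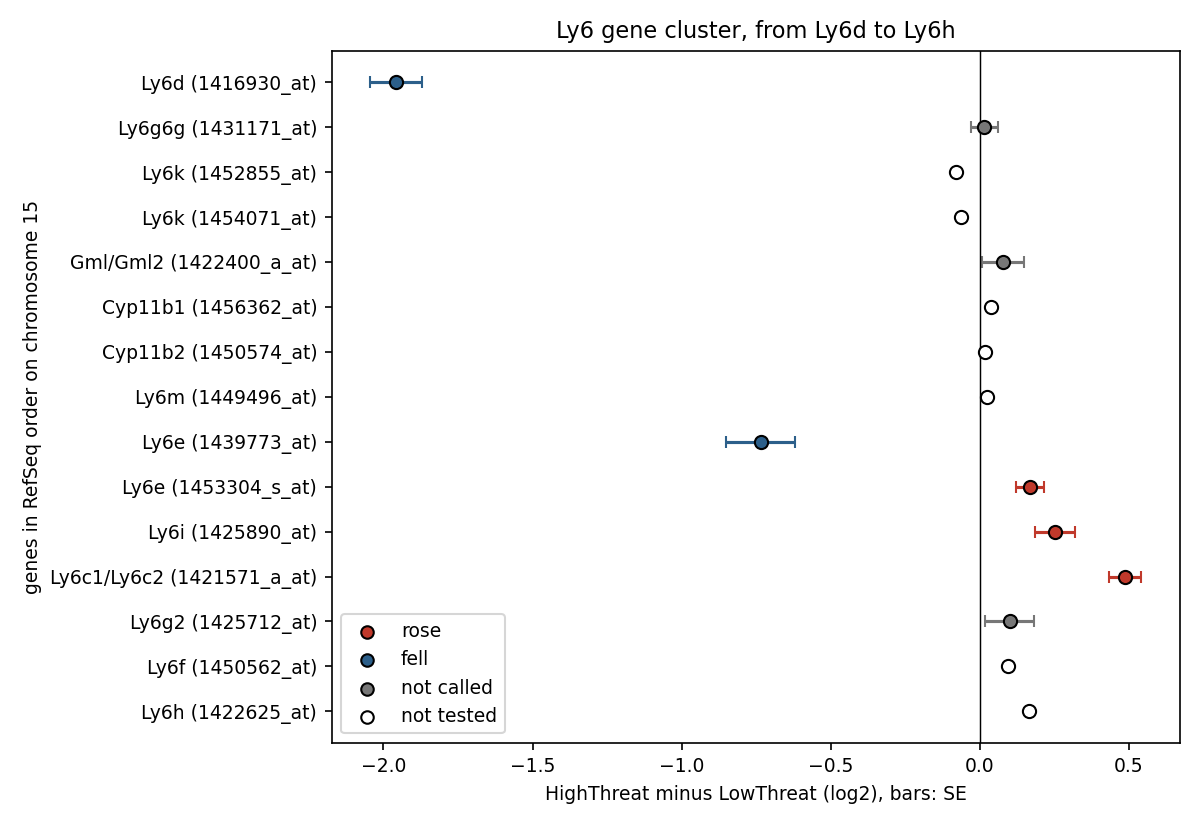
HighThreat minus LowThreat difference (log2, x axis; bars are limma SE) of the 15 probe sets from Ly6d to Ly6h, in gene order from top to bottom; red rose, blue fell, grey was tested and not called, and white was under the filter. Ly6d at -1.96 stands at one end, and the probe sets of Ly6i (0.25) and Ly6c1/Ly6c2 (0.49) lie next to each other.

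Other genes of the wider Ly6/uPAR family, which share the fold, were mostly dim or without a call. Their 36 probe sets cover 28 genes, of which 15 were under the filter, 17 were tested and not called, 2 rose and 2 fell. Cd177, a GPI-anchored antigen of neutrophils, had the largest rise, at 9.86 ± 0.235 in HighThreat and 8.32 ± 0.109 in LowThreat (difference 1.53, SE 0.125, limma adjusted p = 2.99e-06). Lypd6b rose by 0.87 (SE 0.104, limma adjusted p = 5.42e-05). Lynx1, a modulator of acetylcholine receptors in neurons, fell on both of its probe sets, by 0.61 (limma adjusted p = 0.000492) and by 0.32 (limma adjusted p = 0.0329). Plaur, the urokinase receptor, which like Lynx1 is named after its values had been seen, averaged 8.90 ± 0.090 in HighThreat and 8.995 ± 0.084 in LowThreat and did not pass (limma adjusted p = 0.250). Taking the brightest probe set of each listed gene, 2 of 16 tested rose and 1 fell, with a median difference of 0.044 beside 0.016 over all tested. The 18.8% called lie below the 39.8% of all tested probe sets.

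The enzymes that build and trim the GPI anchor, which every member needs to reach the cell surface, were called no more often than probe sets at large. Of 26 tested, 7 rose, 2 fell and 17 did not pass, with a median of 0.076, and the 34.6% called stand beside 39.8% of all tested probe sets. The changes below are therefore those of single genes. Pigs, a subunit of the transamidase that attaches the anchor, rose by 0.40 (SE 0.063, limma adjusted p = 0.000382), and Pgap2, a remodelling factor and the brightest of the list, rose by 0.37 (SE 0.062, limma adjusted p = 0.000607). Pigp, a subunit of the enzyme of the opening step, fell by 0.75 (SE 0.078, limma adjusted p = 1.95e-05).

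Ly6e and Ly6C are known as interferon-induced, so lists of interferon-induced genes are set beside them. The type I interferon list had 31 tested genes, of which 24 rose, 1 fell and 6 did not pass (median 0.58). The 80.6% called stand beside 39.8% of all tested probe sets. Ifit1, which binds viral RNA, rose by 1.36 (SE 0.079, limma adjusted p = 2.33e-07). Usp18, a brake on the interferon receptor, rose by 1.15 (SE 0.065, limma adjusted p = 2e-07), and the antiviral membrane protein gene Ifitm3, the brightest, rose by 0.28 (SE 0.042, limma adjusted p = 0.000277). The 1 gene that fell, named after its values had been seen, was Ifi47, by 0.19 (limma adjusted p = 0.0484). The mean of the list on an array was 7.37 to 7.50 in HighThreat and 6.89 to 6.93 in LowThreat.

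The list of interferon gamma-induced genes had calls in both directions, with 5 of 18 higher, 5 lower and a median of 0.037. The share called was 55.6%, beside 39.8% of all tested probe sets. The chemokine gene Cxcl10 rose by 0.83 (SE 0.079, limma adjusted p = 9.48e-06), and Gbp2, a guanylate-binding protein, rose by 0.60 (SE 0.057, limma adjusted p = 1.02e-05). Among those that fell, named after their values had been seen, were Ciita, the switch of MHC class II genes, by 0.53 (limma adjusted p = 9.72e-05), the chemokine gene Cxcl9 by 0.55 (limma adjusted p = 0.00154) and Cd274, encoding PD-L1, by 0.42 (limma adjusted p = 0.000309). The transcription factor gene Irf1, the brightest of the list, averaged 9.74 ± 0.064 in HighThreat and 9.83 ± 0.026 in LowThreat and did not pass (limma adjusted p = 0.225). Among 16 interferon receptor and signalling genes, 6 were called higher and 3 lower (median 0.10), a share called of 56.2%. Socs3, a feedback inhibitor of cytokine signalling, rose by 0.90 (SE 0.053, limma adjusted p = 2.42e-07), and Stat3, a transcription factor of cytokine signalling named after its values had been seen, fell by 0.77 (SE 0.048, limma adjusted p = 3.98e-07).

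Markers of myeloid cells are set beside Ly6C first. CD11b itself, encoded by Itgam, averaged 8.50 ± 0.070 in HighThreat and 7.93 ± 0.026 in LowThreat and rose by 0.57 (SE 0.052, limma adjusted p = 7.2e-06), and 8 of 10 general myeloid markers rose. The endotoxin co-receptor gene Cd14 rose by 0.58 (SE 0.044, limma adjusted p = 1.74e-06) and Adgre1, encoding F4/80, by 0.69 (SE 0.056, limma adjusted p = 3.05e-06). The lysozyme gene Lyz2, the brightest, averaged 12.86 in HighThreat and 12.74 in LowThreat and did not pass (limma adjusted p = 0.0566). Called shares were 80% for the general myeloid markers and 60% for the Ly6C-high monocyte markers that follow, beside 39.8% of all tested probe sets. Of 10 tested markers of Ly6C-high monocytes 6 rose, none fell and 4 did not pass, with a median of 0.64 and a list mean of 9.37 to 9.46 in HighThreat and 8.65 to 8.79 in LowThreat. The acute-phase gene Hp rose by 1.82 (SE 0.070, limma adjusted p = 1.62e-08) and Ifitm6 by 1.63 (SE 0.106, limma adjusted p = 5.32e-07). Chil3, a chitinase-like protein and the brightest of the list, rose by 0.74 (SE 0.054, limma adjusted p = 1.26e-06). The 4 that did not pass, named after their values had been seen, were Ccr2 (difference -0.13, limma adjusted p = 0.114), Fn1 (-0.13), S100a4 (-0.051) and Gria3 (-0.014).

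Granulocytes also carry Ly6C. Of 18 tested granulocyte markers, 17 rose, none fell and 1 did not pass, with a median of 1.49. The 94.4% called stand beside 39.8% of all tested probe sets. The list mean was 9.58 to 10.04 in HighThreat and 8.12 to 8.30 in LowThreat. The collagenase gene Mmp8 rose by 2.76 (SE 0.062, limma adjusted p = 5.62e-10) and Chil1, a chitinase-like protein gene, by 2.11 (SE 0.074, limma adjusted p = 9.38e-09). S100a9, a calcium-binding protein of granulocytes and monocytes and the brightest of that list, rose by 0.47 (SE 0.043, limma adjusted p = 6.7e-06). The part of monocytes or granulocytes in the Ly6c1/Ly6c2 difference was not tested.

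B cell markers are set beside Ly6d. Of 11 tested B cell markers 10 fell, none rose and 1 did not pass, with a median of -2.02, and none was under the filter. The 90.9% called stand beside 39.8% of all tested probe sets. The list mean was 4.49 to 4.799 in HighThreat and 6.24 to 6.46 in LowThreat. Cd79a, the signalling chain of the B cell receptor and the brightest of the list, averaged 6.57 ± 0.188 in HighThreat and 8.88 ± 0.075 in LowThreat and fell by 2.31 (SE 0.101, limma adjusted p = 3.38e-08). Fcrla, an Fc receptor-like protein of B cells, fell by 2.02 (SE 0.079, limma adjusted p = 1.82e-08). The marker that did not pass, named after its values had been seen, was Pax5 (difference 0.008, limma adjusted p = 0.936). The smallest fall, also named afterwards, was that of Vpreb3, by 0.31 (limma adjusted p = 0.00221). Ly6d fell by 1.96, close to the median of the B cell list. Falls of this size were not particular to B cell markers. The median was -1.66 for natural killer, -1.08 for dendritic and -1.07 for plasma cell markers. Among them, named after their values had been seen, the natural killer marker Klrk1 fell by 2.02 and the plasma cell marker Jchain by 2.05. The part of B cells in the Ly6d difference was not tested.

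Other cell types that can carry Ly6 antigens, or that a spleen sample can hold, come next. In each of the lists that follow here, more markers were called lower than higher. Among all tested probe sets 20.9% were called lower and 18.9% higher. Of 6 plasma cell markers 5 fell and 1 rose, of 9 T cell markers 6 fell and 3 did not pass, and of 7 plasmacytoid dendritic cell markers 3 fell and 4 did not pass. Of 8 stem and progenitor cell markers 3 fell and 1 rose, and of 7 endothelial markers 1 fell and 6 did not pass. Markers of Ly6C-low monocytes were mixed, with 4 of 12 higher and 7 lower and a median of -0.31. The share called was 100% for plasma cell, 91.7% for Ly6C-low monocyte and 66.7% for T cell markers. It was 50% for stem and progenitor, 42.9% for plasmacytoid dendritic and 14.3% for endothelial markers, beside 39.8% of all tested probe sets. The plasmacytoid dendritic share was thus near that of all probe sets, and the endothelial share below it. The part of these cell types in the Ly6 differences was not tested.

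**Figure D4:**
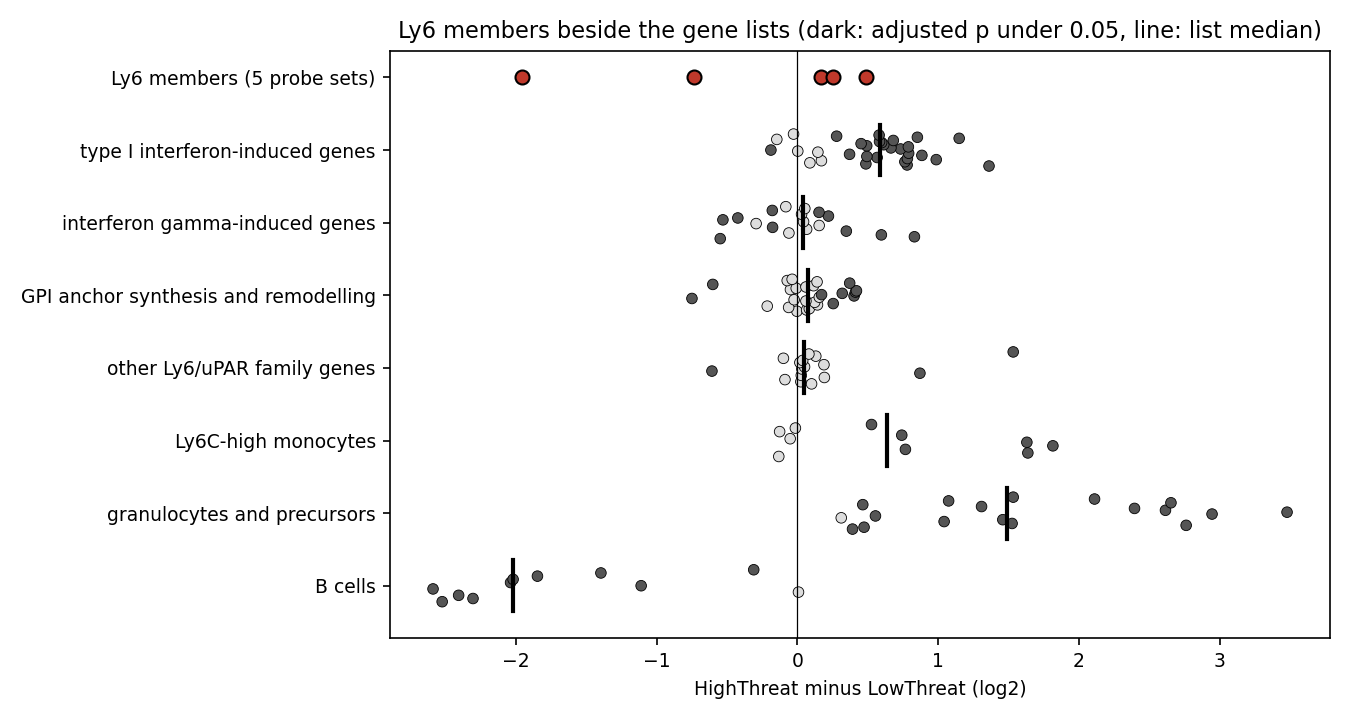
HighThreat minus LowThreat difference (log2, x axis) of the 5 Ly6 probe sets (red, top row) and of the tested genes of 7 lists below, dark where the adjusted p was under 0.05, with a black line at each list's median. The medians run from -2.02 for B cells, near Ly6d, to 1.49 for granulocytes and precursors.

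How members varied among arrays of the same condition was described by deviations from the group mean over the 9 arrays. These deviations are small, share the array's normalization, and are given as a description over 25 relations of 5 probe sets with 5 lists. The first Ly6e probe set followed the mean of the type I interferon list (r = 0.96, rho = 0.88, and r = 0.85 without the 2 arrays farthest out on the list). HighThreat animal 1 had the lowest value of both in its group, and HighThreat animal 5 the highest. For the second Ly6e probe set r was -0.24, and -0.77 without the same 2 arrays. For Ly6c1/Ly6c2 it was -0.46, and 0.40 without them, so that its sign rests on those 2 arrays. For Ly6i it was -0.31 with them and 0.052 without, and for Ly6d -0.59 with them and -0.41 without.

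Ly6c1/Ly6c2 followed the Ly6C-high monocyte list (r = 0.83, rho = 0.85, and r = 0.68 without the 2 arrays farthest out) and the granulocyte list (r = 0.78, rho = 0.70, and r = 0.57 without the 2 farthest out on that list). Ly6d followed the B cell list (r = 0.91, rho = 0.90, and r = 0.91 without the 2 arrays farthest out) and the granulocyte list (r = 0.94, rho = 0.95, and r = 0.98 without the 2 farthest out), although B cell markers fell and granulocyte markers rose between the conditions. These relations were not particular to the cell type a member is known for: Ly6c1/Ly6c2 also had r = 0.62 with the B cell list (0.49 without the 2 farthest out), and Ly6d had r = 0.60 with the Ly6C-high monocyte list (0.87 without the 2 farthest out). The first Ly6e probe set also had r = 0.62 with the general myeloid list (0.67 without the 2 farthest out). It had r = -0.68 with the granulocyte list (-0.18 without them) and -0.70 with the B cell list (-0.56 without them). Over all 9 arrays Ly6i followed none of the 5 lists closely, the largest correlation being -0.505 with the general myeloid list. Without the 2 farthest out, Ly6i had r = -0.67 with that list and -0.62 with the granulocyte list. Within HighThreat, the deviations of Ly6d and of the B cell and granulocyte lists mostly declined with animal number. From animal 1 to animal 6 they went from 0.13 to -0.24 for Ly6d and from 0.15 to -0.16 for the B cell list. For the granulocyte list they went from 0.22 to -0.21, and for Ly6c1/Ly6c2 from 0.085 to -0.030. The part of this order in the correlations was not tested.

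**Figure D5:**
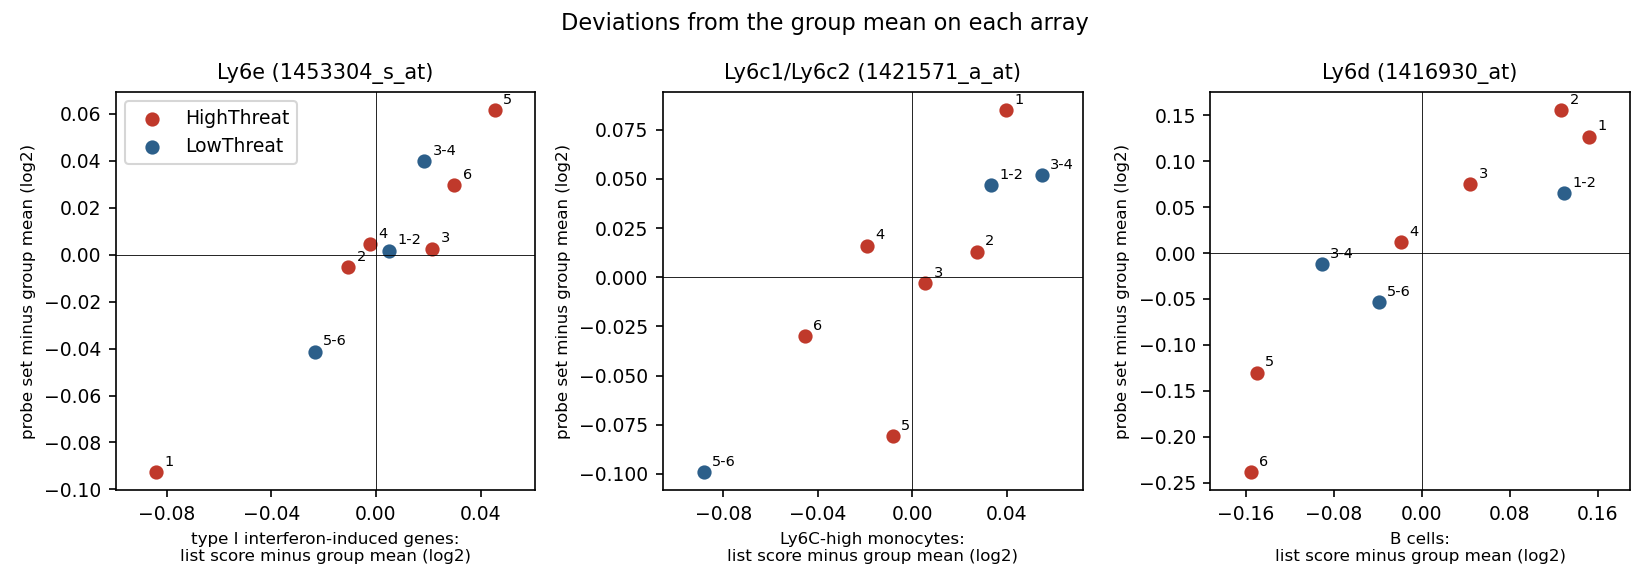
Deviation of a Ly6 probe set from its group mean (log2, y axis) against the deviation of a list mean (log2, x axis) on each array, for the first Ly6e probe set with the type I interferon list, Ly6c1/Ly6c2 with the Ly6C-high monocyte list and Ly6d with the B cell list; HighThreat arrays are red, LowThreat pools blue, and labels give the animal or pool number. Points climb from lower left to upper right in each panel, with r = 0.96, 0.83 and 0.91 over 9 arrays.

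Among the members themselves such deviations were loosely related. Over 10 pairs of probe sets the closest were Ly6d with Ly6c1/Ly6c2 (r = 0.62, rho = 0.57) and, in the opposite sense, Ly6d with the first Ly6e probe set (r = -0.56, rho = -0.63). The 2 Ly6e probe sets did not move together (r = -0.38, rho = -0.55).

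The genes whose deviations were most like those of each member were taken from 11018 candidates with 9 arrays each, a search that returns high values by its size. For Ly6c1/Ly6c2 the closest was Atxn10 (r = 0.97), which rose by 1.11 (SE 0.085, limma adjusted p = 1.98e-06), followed by Sh3gl3 and Oscp1 (both r = 0.96). For the first Ly6e probe set it was Ptges, the inducible prostaglandin E synthase gene (r = 0.96), which rose by 1.65 (SE 0.111, limma adjusted p = 6.83e-07), followed by Otub2 and Sepsecs (both r = 0.96).

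For Ly6d the closest was Abca13, a membrane transporter gene (r = 0.99), which rose by 2.21 (SE 0.128, limma adjusted p = 2.41e-07) while Ly6d fell, followed by Cpne3 and Racgap1 (both r = 0.98). For Ly6i they were Bola2 (r = 0.93), Mapk9 and Tsc22d1 (both r = 0.92), and none of these 3 passed the test between the conditions, at limma adjusted p of 0.504, 0.103 and 0.724.

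RNA integrity was read from beta-actin, as the signal of its 3' probe set minus that of its 5' one, which averaged 0.36 ± 0.034 in HighThreat and 0.47 ± 0.063 in LowThreat arrays (SD, n = 6 and 3). Its part in the Ly6 differences was not tested. The median of the arrays ran from 3.19 to 3.22.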

How the data were processed

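The authors deposited log2 values of probe set signal for each array, computed with RMA per the submitters' processing notes, in a version not given in the sources used here. Their range, 0.607 to 13.567, is the basis for reading them as log2. RMA makes the arrays' distributions alike, so a difference in total RNA per cell would not be seen, and it gives no detection call. The number of arrays limits the precision.

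The stress label gave the groups. In the platform annotation 34945 non-control probe sets name 1 gene, 932 several and 9160 none. Symbols were updated through Entrez numbers to a RefSeq table of GRCm38.p6, used for names and gene order, and promoter windows came from RefSeq on that assembly. Probe sets with a mean at or above the 40th percentile, a log2 value of 2.66, were tested with limma 3.58.1 in R 4.3.3 (lmFit, eBayes, no covariate, both groups sharing 1 spread, Benjamini-Hochberg over 27022 probe sets, called under 0.05). SE is limma's moderated standard error. The steps were tested on simulated data.

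Pairs of members were compared with a two-sided exact permutation test, adjusted over the 6 pairs. Lists used the brightest probe set per gene that names 1 gene and are described by counts and medians, with no list test. The members and lists were chosen with earlier results of these data known. Named genes are every member, Itgam, from a list set beside a member at most the pair of genes with the lowest p and the brightest one, and the 3 genes most like each member among probe sets with at least the median spread within groups. Alternatives were other filters and normalizations, other settings of limma and weights, 1 probe set per symbol, averages over a gene's probe sets, averaging of HighThreat animals, a replicate block, and leaving out each array.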

Additional observations from a re-analysis of the deposited data

How the results depend on the processing

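Over 10 other settings and 9 fits without 1 array, the 5 Ly6 differences kept their direction wherever the probe set was fitted. Without 1 array, 2 to 3 members were called higher. Ly6i ran from 0.19 to 0.29 and lost its call without LowThreat pool 3-4, and the first Ly6e probe set ran from 0.15 to 0.19 and lost its call without LowThreat pool 5-6. The range was 0.44 to 0.51 for Ly6c1/Ly6c2, -1.99 to -1.91 for Ly6d and -0.88 to -0.61 for the second Ly6e probe set. With 1 probe set per gene symbol 1 member was called lower, because the second Ly6e probe set is then left out. With no filter limma called 0 genes of the type I interferon list lower, Ifi47 missing the threshold.

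Without 1 array, the shift ran from 0.28 to 0.35 for Ly6c1/Ly6c2 minus Ly6e, from 0.16 to 0.32 for Ly6c1/Ly6c2 minus Ly6i, from 2.40 to 2.48 for Ly6c1/Ly6c2 minus Ly6d, from 2.07 to 2.17 for Ly6e minus Ly6d and from 2.14 to 2.26 for Ly6i minus Ly6d. Each lost its call without LowThreat pool 1-2 or 5-6, where 28 divisions allow no smaller p than 0.0357, and Ly6c1/Ly6c2 minus Ly6i also without HighThreat animal 1 or 4 (adjusted p = 0.0643). With averages over a gene's probe sets, Ly6e minus Ly6i was -0.54 and passed (adjusted p = 0.0143), the second Ly6e probe set being part of that mean. The Ly6e mean and Ly6i separated the groups in opposite directions, so this p adds nothing to their own differences.

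Deviations of same-numbered animals and pools correlated at 0.050, -0.245 and -0.241. With deviations taken within only 3 pools, these values cannot decide whether the numbers pair them. With a replicate block on the numbers 10260 probe sets were called in place of 10749, and all 5 Ly6 calls held (adjusted p = 5.56e-05 for Ly6c1/Ly6c2, 0.0263 for the first Ly6e probe set). Calls over the whole table covered 24.3% of probe sets with no filter and 52.5% with a filter at the 60th percentile. The median difference of all tested was 0.016 as deposited, 0.029 after quantile normalization and 0.024 after median centring. The smallest rises, of Ly6i and the first Ly6e probe set, each rest on 1 of 3 pools for their call, and RMA gives no detection call for the dim probe sets.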

Other observations

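Several lists outside the Ly6 comparisons held values that belong beside them. All 9 tested dendritic cell markers were called lower in HighThreat, with a median of -1.08, and their list mean was 6.32 to 6.40 in HighThreat and 7.42 to 7.48 in LowThreat. Of 10 natural killer cell markers 9 fell and none rose (median -1.66). Of 12 markers of red pulp and marginal zone macrophages 6 fell and 2 rose, with a median of -0.16, and of 6 erythroid and platelet markers 3 rose and none fell (median 0.17). The share called was 100% for dendritic, 90% for natural killer, 66.7% for macrophage and 50% for erythroid and platelet markers. Among all tested probe sets it was 39.8%.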
